A study of Homo sapiens with 30 samples.

Results

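Cluster 6 is a set of 1671 accessible regions of wild-type HUES8 cells, each 500 bp wide, out of 22974 regions that the study sorted into 9 clusters of wild-type peaks. Its members were all regions of the file that carries the number 6 in its name. The number written inside that file is 1, and the numbers inside and outside differ in all 9 files. The accessibility profile behind a cluster was not stated, so the set is called by its number. No member shares a base pair with a region of another cluster.

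The samples were HNF6 knockout cells (HNF6-KO) and wild-type control cells (Con) of HUES8, an established line of human embryonic stem cells, taken through pancreatic differentiation in culture. Each genotype was sampled by ATAC-seq at 5 stages, with 3 samples for each genotype and stage and 30 in all. The stages were undifferentiated stem cells (ESC), then definitive endoderm (DE), gut tube (GT), the PE stage of pancreatic endoderm and, last, the PP stage of pancreatic progenitors. The sources used here do not say how the knockout was made, how many clones it stands for or whether the samples of a group were separate differentiations. Any spread between the 3 samples may therefore be technical, and a difference between the genotypes cannot be told apart from a difference between the cell lines that carry them.

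HNF6, also called ONECUT1, is a homeodomain transcription factor that binds DNA in the early liver and pancreas and acts upstream of other factors of pancreatic and endocrine fate. ATAC-seq reads open chromatin through a transposase that inserts adapters where DNA is not wrapped tightly, so promoters and active enhancers give strong signal. Broadly used promoters stay open in most cell types, while enhancers tend to open and close as cells change identity.

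Beside the clusters, the study gives 10 lists of regions that differed between genotypes, one for each genotype and stage, here called the HNF6-KO list and the Con list of a stage. A list was taken to hold the regions with more signal in the genotype that names it, and every direction given here rests on that reading. The lists hold 89929 regions, and each carries 3 whole-number values per genotype. These numbers may be counts of reads or may have been scaled, and no library totals come with them, so depth is unknown for every sample. A member counts as listed when it shares at least 1 bp with a region of the list. Positions are on hg19, the build named in the submitters' processing notes, and no gene annotation or sequence of that build was used, so regions are given by position.

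Members of cluster 6 were often listed, and in both directions. In all, 960 of the 1671 (57.5%, 95% Wilson interval 55.1 to 59.8) were listed at 1 or more stages, where 38.4% of all cluster regions were. Among the other 8 clusters together the share was 36.9% (36.2 to 37.5), and cluster by cluster it ran from 23.3% in cluster 9 to 57.6% in cluster 5. The remaining 711 members were in no list. The intervals cover counting error only, because there is 1 list for each genotype and stage and regions are not replicates. The difference between clusters was not tested. In bulk samples, fewer cells with an open region and less opening per cell cannot be told apart.

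In undifferentiated cells, before any pancreatic step, both directions were already frequent. The HNF6-KO list at ESC held 183 members, or 11% (9.54 to 12.5), against 3.73% of all cluster regions and 3.17% of the other clusters. The Con list at ESC held 174 members, or 10.4% (9.04 to 12), against 5.38% of all cluster regions and 4.98% of the other clusters. Of the 9 clusters, cluster 6 had the highest share in the HNF6-KO list and the third highest in the Con list.

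At definitive endoderm the listed members were mostly more open in the knockout. The HNF6-KO list at DE held 198 members, or 11.8% (10.4 to 13.5), against 5.69% of all cluster regions. The Con list at DE held 39, or 2.33% (1.71 to 3.17), against 4.99% of all cluster regions, so that here the members fell below the background. So did clusters 1, 3, 4, 7 and 8, and cluster 6 ranked 7 of the 9 clusters. The highest shares were 11.7% in cluster 9 and 7.38% in cluster 2. Gut tube had the fewest, with 48 members in the HNF6-KO list (2.87%, 2.17 to 3.79) against 1.86% of all cluster regions, and 67 in the Con list (4.01%, 3.17 to 5.06) against 2.49%.

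At PE the HNF6-KO list held 182 members (10.9%, 9.49 to 12.5), against 3.97% of all cluster regions, while the Con list held 118 (7.06%, 5.93 to 8.39), close to the 6.44% of all cluster regions. At PP it was the Con list that stood above the background. The HNF6-KO list held 202 members (12.1%, 10.6 to 13.7), near the 11.1% of all cluster regions, and the Con list held 127 (7.60%, 6.42 to 8.97), against 2.47% of all cluster regions. Cluster 5 (23.9%) was higher in this Con list and cluster 8 (6.20%) was close to cluster 6, while no other cluster exceeded 2.13%.

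**Figure D1:**
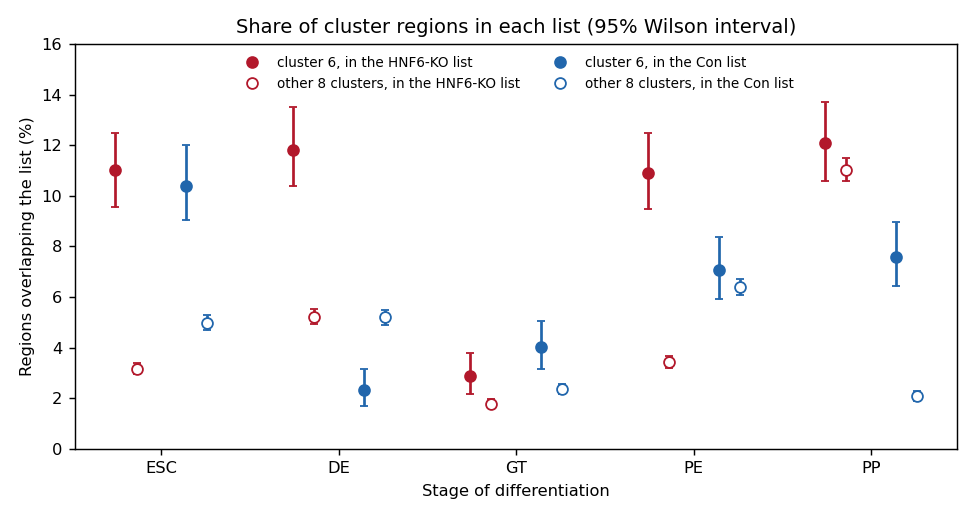
Share of cluster regions that overlap the HNF6-KO list (red) and the Con list (blue) of each stage, in percent, with 95% Wilson intervals that cover counting error only. Filled points are cluster 6 (1671 regions) and open points the other 8 clusters (21303 regions). Cluster 6 lies above the others by more than the intervals in 7 of the lists, is below them in the Con list of DE (2.33% against 5.20%), and is near them in the Con list of PE and the HNF6-KO list of PP.

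Divided by the share of the other clusters, the share of cluster 6 was 3.67 times as high in the Con list of PP, 3.46 in the HNF6-KO list of ESC, 3.18 in the HNF6-KO list of PE, 2.27 in the HNF6-KO list of DE and 2.09 in the Con list of ESC. The ratios were smaller at GT, 1.61 for the HNF6-KO list and 1.69 for the Con list. In that HNF6-KO list clusters 8 (2.66%) and 1 (2.56%) were close to the 2.87% of cluster 6. In that Con list clusters 3 (6.66%) and 7 (4.78%) were above its 4.01%. The ratios were 1.10 for both the HNF6-KO list of PP and the Con list of PE, and 0.449 for the Con list of DE. The ratio of 1.10 in the Con list of PE turned to 0.898 when at least 250 bp had to be shared and to 0.890 among the regions of that list above its median -log10 p. The 1.10 in the HNF6-KO list of PP became 0.982 when only list regions with values apart were counted. Giving the other clusters the chromosome makeup of cluster 6 lowered the PP ratio to 3.15 and left it as the second highest, after 3.68 for the HNF6-KO list of ESC.

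The members make up a small part of each list. From 0.540% (Con, DE) to 3.72% (Con, PP) of list regions held a member. The share of listed members wholly covered by list regions was lowest in the Con list of DE (38.5%) and highest in the HNF6-KO list of DE (71.2%).

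The balance of directions moved with the stage. Among members in 1 list of a stage only, 177 were higher in the knockout at ESC (3.70% of all cluster regions were) and 168 higher in control (5.35%), an HNF6-KO share of 51.3% (46.0 to 56.5), where the other clusters had 38.9% (36.6 to 41.2). Taken singly, only clusters 1 and 7 leaned to Con at ESC. At DE, 197 were higher in the knockout (5.67% of all cluster regions) and 38 in control (4.96%), an HNF6-KO share of 83.8% (78.6 to 88.0), where the other clusters together had 50.1%. Only clusters 2 and 9 leaned to Con at DE. Cluster 1 leaned to HNF6-KO much as cluster 6 did, with 11.8% of its regions in the HNF6-KO list and 2.60% in the Con list. In cluster 7 these were 8.39% and 3.41%. At GT the split was 48 (1.86% of all cluster regions) against 67 (2.49%), or 41.7% (33.1 to 50.9), close to the 42.9% of the other clusters. Over all regions of the lists of a stage, the HNF6-KO share was 57.4% at ESC, 62.8% at DE and 73.0% at GT. Beside the whole lists, the members were thus lower at ESC and GT and higher at DE.

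At PE and PP, too, the balance in the members was unlike that in the remaining clusters. At PE, 182 were higher in the knockout (3.96% of all cluster regions) and 118 in control (6.43%), an HNF6-KO share of 60.7% (55.0 to 66.0), where the other clusters had 34.8%. All regions of the PE lists had 43.9%. Cluster by cluster, the lean to HNF6-KO at PE was shared by clusters 1, 3, 5 and 7. Cluster 1 had 7.15% of its regions in the HNF6-KO list and 5.02% in the Con list. In cluster 7 these were 4.91% and 1.27%, and in cluster 5 10.6% and 4.38%. Clusters 2, 4, 8 and 9 leaned to Con, most of all cluster 4 (3.22% and 16.4%) and cluster 8 (3.86% and 18.4%). At PP, 202 were higher in the knockout (11.1% of all cluster regions) and 127 in control (2.45%), a share of 61.4% (56.0 to 66.5), where the other clusters had 84.3% and all regions of the PP lists 88.7%. Cluster 5 alone leaned to Con at PP, with 11.5% of its regions in the HNF6-KO list and 23.9% in the Con list. In either list of a stage there were 351 members at ESC (21%, against 9.08% of all cluster regions), 236 at DE (14.1%, against 10.7%), 115 at GT (6.88%, against 4.35%), 300 at PE (18%, against 10.4%) and 329 at PP (19.7%, against 13.6%). A few members were in both lists of a stage, 6 at ESC and 1 at DE.

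Where members of cluster 6 were listed, the differences were small and the signal strong beside list regions of the other clusters. Only listed regions carry values, so members in no list are not covered. No listed region had a -log10 p under 5.0, and a small ratio reaches that more readily at high values. The small ratio and the high level are therefore not separate observations. In all 10 lists, list regions with a member had a smaller median ratio than those with regions of other clusters only, on the log2 scale of HNF6-KO over Con with 1 added to each mean. The medians ran from 0.41 (PE) to 0.53 (PP) over the HNF6-KO lists and from -0.57 (DE) to -0.42 (PE) over the Con lists. At PP, for example, the median was 0.53 for the 195 HNF6-KO regions with a member and 0.79 for the 2101 with other clusters only, and it was -0.47 for 118 Con regions with a member and -0.77 for 414 with other clusters only. Differences of at least 2-fold were rare: 0 of 170 HNF6-KO regions at ESC (45.6% of that whole list), 0 of 167 at PE (23.3%), 2 of 195 at PP (56.8%), 5 of 179 at DE (33.9%) and 1 of 44 at GT (53.9%). In the Con lists they numbered 1 of 166 at ESC (28.1% of that list), 4 of 38 at DE (57.4%), 2 of 59 at GT (42.1%), 2 of 112 at PE (45.7%) and 5 of 118 at PP (38.7%). Regions with other clusters only were also below the whole lists in this. Their shares of at least 2-fold ran from 4.12% (DE) to 24.3% (PP) over the HNF6-KO lists, where regions with a member had 2.79% at DE and 1.03% at PP. Over the Con lists they ran from 5.07% (ESC) to 25.7% (DE), where regions with a member had 0.602% at ESC and 10.5% at DE.

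Signal was compared per length, as the authors' value per 500 bp of list region. In the Con list of PP the median level in regions with a member was 353.7 in HNF6-KO and 478.1 in Con cells, while in regions with other clusters only it was 146.9 in HNF6-KO and 257.8 in Con cells. In the HNF6-KO list of PE the medians were 462.3 and 350.1 with a member, for HNF6-KO and Con cells, and 271.2 and 187.5 with other clusters only. The gap was narrowest in the HNF6-KO list of DE, with 195.3 in HNF6-KO and 132.8 in Con cells against 163.8 and 111.8. Regions with a member were also wider, with medians between 900 bp (Con, PP) and 1800 bp (HNF6-KO, DE and GT). The part of level and width in how often members were listed was not tested.

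**Figure D2:**
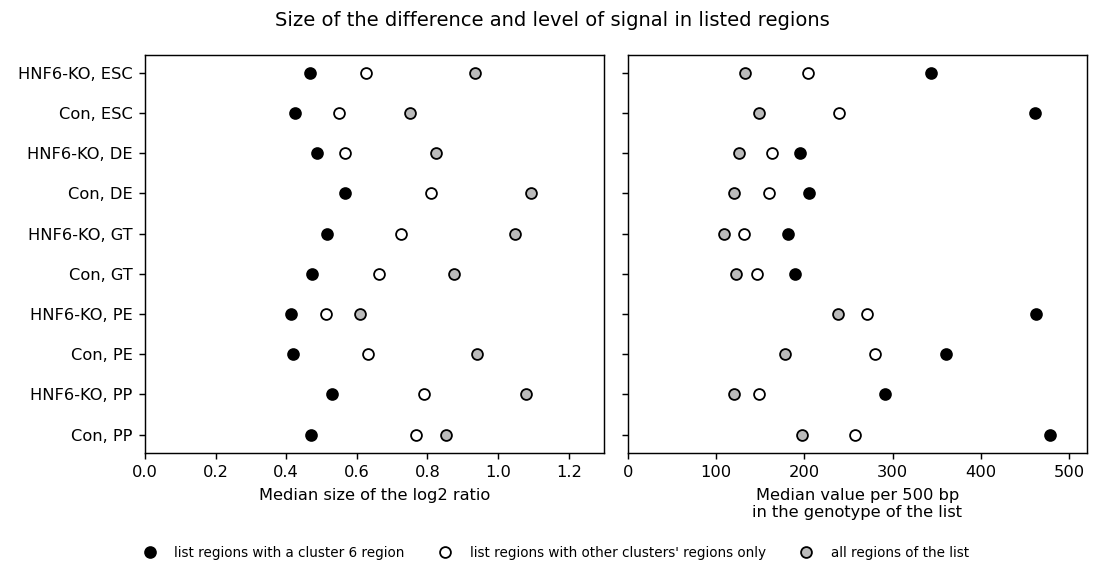
Size of the median log2 ratio (left) and median value per 500 bp in the genotype that names the list (right), for list regions with a cluster 6 region (black), with regions of other clusters only (white) and for the whole list (grey). In each of the 10 lists the black point has the smallest ratio, between 0.41 and 0.57, and the highest level, between 181.0 and 478.1.

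The median coefficient of variation over list regions with a member lay between 11.6% and 17.2% for HNF6-KO values and between 9.75% and 23% for Con values. Relative to the mean of the 3, the median of each place among the values lay between 0.922 and 1.07 for HNF6-KO. For Con the places stood farthest apart in the Con list of DE, at 1.19, 0.995 and 0.822, and in the Con list of ESC they were at 1.08, 1.03 and 0.876. The part of single samples in these lists was not tested. The 3 HNF6-KO and 3 Con values were apart in 124 of 170 HNF6-KO regions at ESC (72.9%, against 77.7% of the whole list), 124 of 179 at DE (69.3%, against 76.1%), 34 of 44 at GT (77.3%, against 82.5%), 109 of 167 at PE (65.3%, against 74.9%) and 140 of 195 at PP (71.8%, against 79.4%). In the Con lists they did not overlap in 100 of 166 at ESC (60.2%, against 73.9%), 21 of 38 at DE (55.3%, against 79.9%), 41 of 59 at GT (69.5%, against 82.7%), 86 of 112 at PE (76.8%, against 79.5%) and 95 of 118 at PP (80.5%, against 82.5%). In regions with other clusters only, values were apart in 75.6% at ESC, 73.1% at DE, 78.1% at GT, 69.3% at PE and 79.5% at PP over the HNF6-KO lists. Over the Con lists these shares were 63.7%, 77.8%, 82.0%, 74.3% and 85.5% at the same stages. Beside them, regions with a member were lowest in the Con list of DE and higher in that of PE. All these regions had been listed for a difference, so these counts describe the lists.

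The members that led the lists are given here by sample. Most had a ratio larger in size than the median over the regions of their list with a member. They were the members with the highest -log10 p of the authors in each list, outside chromosomes 8, Y and M. A value covers the whole list region, which can be wider or narrower than the 500 bp of the member, so values are compared between genotypes and not between places. For 3 values against 3 the smallest two-sided p of an exact permutation test is 0.1, so no region passes on its own. The leaders were also chosen for a difference between genotypes at that stage, so values apart in them add no support.

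The strongest difference by the authors' p among all members of the Con list at PP was at chr9:134682644-134683143. In the authors' deposited table the list region around it had values of 632, 538 and 484 in HNF6-KO and 1289, 1223 and 1228 in Con cells at PP. All Con values lay above all knockout values, a log2 ratio of -1.18 (exact permutation p = 0.1), and the member was listed at no other stage. The second of that list, chr1:3236407-3236906, had 831, 912 and 752 in HNF6-KO and 1207, 1715 and 1464 in Con cells in the authors' deposited table. It too was listed at PP alone, with a log2 ratio of -0.81.

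At the same stage the opposite direction was led by chr6:159274276-159274775, with 1587, 1346 and 1326 in HNF6-KO and 698, 859 and 856 in Con cells in the authors' deposited table. The lowest knockout value exceeded the highest control value, and the log2 ratio was 0.82. It was followed by chr20:58405995-58406494, with 786, 703 and 532 in HNF6-KO and 335, 359 and 293 in Con cells in the authors' deposited table, a log2 ratio of 1.03. Both were listed at PP alone, so neither had been listed in the undifferentiated cells.

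At PE, the member at chr11:132275372-132275871 led the Con list, with 438, 406 and 422 in HNF6-KO and 701, 994 and 937 in Con cells in the authors' deposited table. Its log2 ratio was -1.05, and it had been in the Con list at GT as well, where 271 of its 500 bp lay in a region with 117, 40 and 99 in HNF6-KO and 249, 214 and 152 in Con cells in the authors' deposited table (log2 ratio -1.26). The next, chr17:29395346-29395845, had 228, 147 and 126 in HNF6-KO and 438, 365 and 557 in Con cells in the authors' deposited table, a log2 ratio of -1.44 without overlap. Higher in the knockout at PE was chr9:131397967-131398466, with 1521, 1448 and 935 in HNF6-KO and 857, 706 and 864 in Con cells in the authors' deposited table. One knockout value lay close to the control values there, and the log2 ratio was 0.69. The second, chr22:20790512-20791011, had 1640, 2003 and 2196 in HNF6-KO and 1482, 1266 and 1365 in Con cells there, again in the authors' deposited table. The member was higher in the knockout without overlap at ESC, DE and PE, with log2 ratios of 0.42, 0.37 and 0.51.

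At GT, the member at chr17:47090711-47091210 had 979, 822 and 1002 in HNF6-KO and 564, 535 and 640 in Con cells in the authors' deposited table (log2 ratio 0.69), and chr2:98279823-98280322 had 1120, 1267 and 898 in HNF6-KO and 819, 705 and 766 in Con cells (0.52). Each lay in another HNF6-KO list as well, the member on chromosome 17 at PP and that on chromosome 2 at ESC. Higher in control at GT was chr10:20104625-20105124, with 777, 968 and 781 in HNF6-KO and 1192, 1268 and 1562 in Con cells in the authors' deposited table (-0.67). The member at chr7:155597568-155598067, inside a list region of 5050 bp, had 1045, 953 and 1299 in HNF6-KO and 1636, 1491 and 1486 in Con cells in the authors' deposited table (-0.48).

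At DE, chr14:105957117-105957616 led the HNF6-KO list with 1685, 1437 and 1524 in HNF6-KO and 1207, 976 and 984 in Con cells in the authors' deposited table (log2 ratio 0.55). The second, chr11:118186037-118186536, had 471, 552 and 643 in HNF6-KO and 337, 311 and 233 in Con cells in the authors' deposited table (0.92), and stayed without overlap and in the same direction at PP (0.67). In the Con list of DE the first member, chr2:72374575-72375074, shared 176 bp with a region that had 458, 535 and 238 in HNF6-KO and 692, 761 and 666 in Con cells in the authors' deposited table (-0.78). The second, chr16:52299201-52299700, shared 350 bp with a region that had 11, 24 and 5 in HNF6-KO and 130, 53 and 65 in Con cells in the authors' deposited table. Its log2 ratio was -2.55, and it was lower in the knockout again at PE (-0.89) and PP (-1.33), without overlap at all 3 stages.

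At ESC, the member at chr6:12013110-12013609 had 1811, 1989 and 1886 in HNF6-KO and 1245, 1238 and 1416 in Con cells in the authors' deposited table (log2 ratio 0.54), and chr9:140195626-140196125 had 1452, 1153 and 1277 in HNF6-KO and 740, 717 and 1004 in Con cells (0.66). Both were listed at ESC alone. In the Con list, chr20:30196213-30196712 had 2191, 2133 and 1777 in HNF6-KO and 3292, 3035 and 2475 in Con cells in the authors' deposited table (-0.53). Its neighbour in rank, chr20:31044887-31045386, had 2536, 2401 and 2018 in HNF6-KO and 3231, 3353 and 2706 in Con cells in the authors' deposited table (-0.42). In each of these 4 the genotypes did not overlap. The Con-list members named here both lie on chromosome 20, which leaned to Con at ESC. There the Con list held 18 members and the HNF6-KO list 5, beside 90 and 15 regions of the other clusters.

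**Figure D3:**
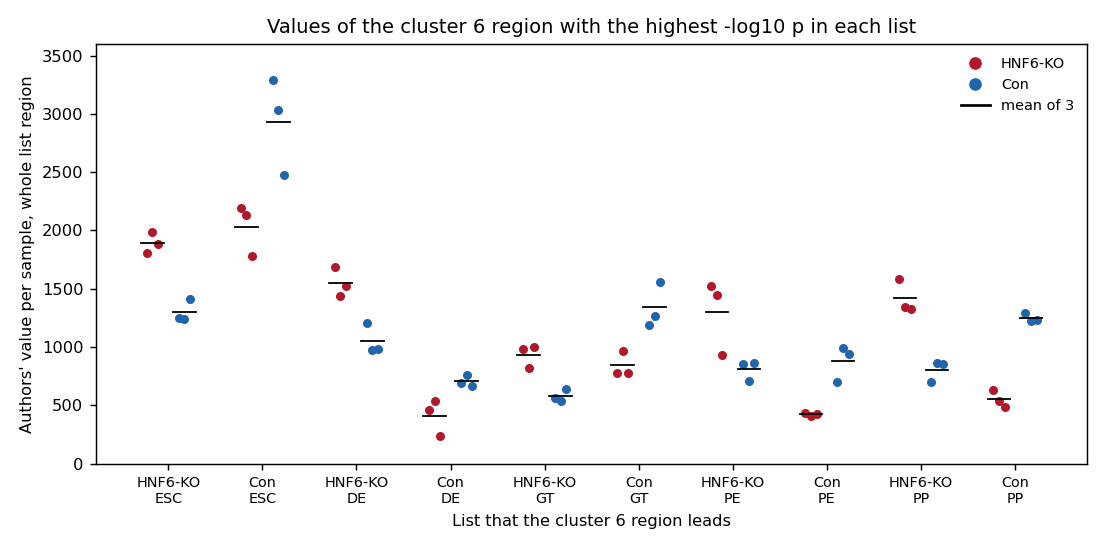
Values per sample (points) and their mean (black line) over the whole list region, for the cluster 6 region with the highest -log10 p of the authors in each list outside chromosomes 8, Y and M. HNF6-KO values are red and Con values blue, and in all 10 regions the 2 genotypes do not overlap. The regions were chosen for a difference at that stage, so this adds no support.

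Many members were listed more than once. Of the 1671, 311 (18.6%, 16.8 to 20.5) were listed at 2 or more stages, where 8.37% of all cluster regions were, and 54 (3.23%, 2.49 to 4.19) at 3 or more, where 1.20% were. In the other clusters the shares were 7.57% and 1.04%. Of the 311, 156 (50.2%) kept a single direction, 117 in HNF6-KO lists and 39 in Con lists. The other clusters kept a single direction in 48.6% of such regions. The remaining 155 of the 311 were in lists of both directions, beside 829 of 1612 such regions in the other clusters. In 151 members an HNF6-KO list of one stage was joined by a Con list of another, and in 51 of these both directions also had values without overlap and at least 250 bp shared. The 117 and 39, the 151 and the 51 were not counted in the other clusters, so they are not set against a background.

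The most frequent repeats in one direction were between HNF6-KO lists. The lists of ESC and PE had 33 members in common, 18% of the ESC members and 18.1% of the PE members, where 0.392% of all cluster regions were in both. In the other clusters these were 8.44% of the ESC and 7.82% of the PE regions. The lists of ESC and PP also had 33, 18% and 16.3% (0.631% of all cluster regions), beside 16.6% of the ESC and 4.77% of the PP regions in the other clusters. Those of PE and PP had 27, 14.8% of the PE and 13.4% of the PP members (0.884% of all cluster regions). In the other clusters the share was higher for PE, 24.1%, and lower for PP, 7.49%. Between the Con lists of PE and PP there were 9, 7.63% of the PE and 7.09% of the PP members (0.396% of all cluster regions), beside 6.02% of the PE and 18.6% of the PP regions in the other clusters. The Con lists of ESC and PP had 19 members in common, 10.9% and 15.0% (0.192% of all cluster regions), beside 2.36% and 5.67% in the other clusters.

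In the opposite direction, 35 members were in the Con list of ESC and in the HNF6-KO list of DE, 20.1% of the ESC and 17.7% of the DE members (0.779% of all cluster regions), beside 13.6% and 13.0% in the other clusters. Another 21 were in the HNF6-KO list of DE and the Con list of PP, 10.6% and 16.5% (0.213% of all cluster regions), beside 2.52% and 6.35% in the other clusters. The Con list of ESC and the HNF6-KO list of PE had 20 in common, 11.5% and 11% (0.414% of all cluster regions), beside 7.07% and 10.3% in the other clusters. And 18 were in the Con list of PE and the HNF6-KO list of PP, 15.3% and 8.91% (0.457% of all cluster regions), beside 6.39% and 3.70% in the other clusters. Lists of different stages share no samples, but neighbouring members are not independent, and these overlaps were not tested.

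**Figure D4:**
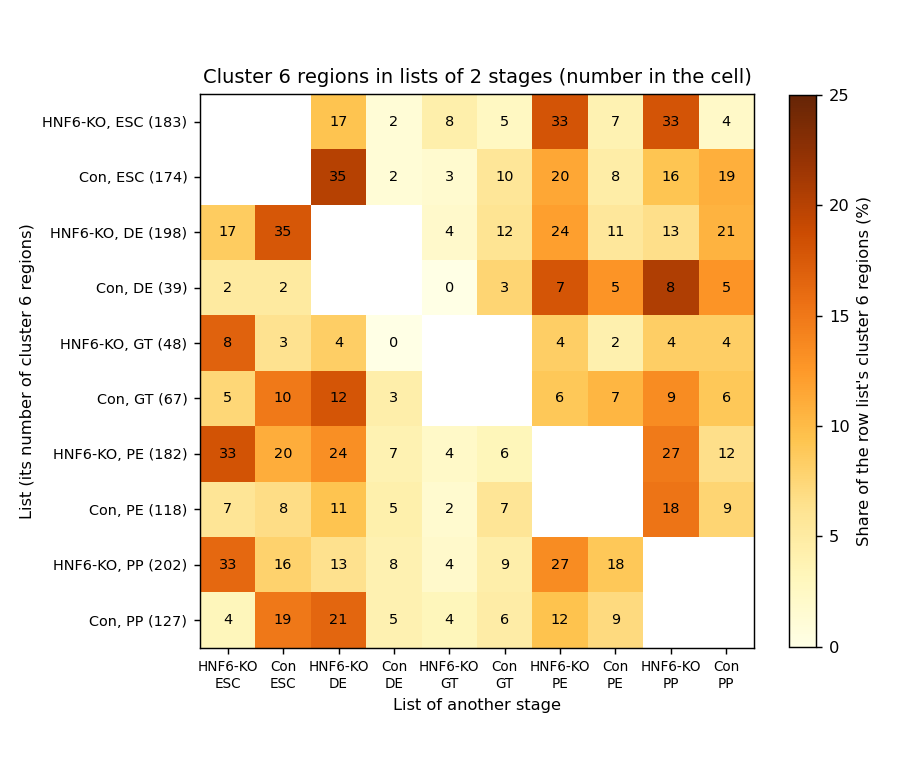
Number of cluster 6 regions in each pair of lists of different stages, with shading for the share of the row list's members, in percent, and the size of each list's member set in parentheses. The darkest cells with over 30 members are the HNF6-KO lists of ESC and PE and of ESC and PP (33 each) and the pair of Con at ESC with HNF6-KO at DE (35).

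The largest number of stages was 4, reached by 6 members, and 5 of these were in lists of both directions. The member at chr1:17027730-17028229 was lower in the knockout at ESC, with 1435, 1536 and 1753 in HNF6-KO and 2200, 2048 and 1927 in Con cells in the authors' deposited table. At DE it was higher in the knockout, with 1028, 1086 and 1173 in HNF6-KO and 943, 821 and 707 in Con cells in the authors' deposited table. At PP it was lower again, with 760, 748 and 736 in HNF6-KO and 1011, 1026 and 1013 in Con cells in the authors' deposited table. The genotypes did not overlap at any of these, and the log2 ratios were -0.39, 0.41 and -0.44.

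The member at chr19:51059510-51060009 followed a like course, with log2 ratios of -0.31 at ESC, 0.39 at DE, 0.35 at PE and -0.40 at PP, of which the last had overlapping values. At chr1:33225670-33226169 the ratio was -0.41 at ESC and 0.29 at PP, both over all 500 bp and without overlap. The member at chr1:1474909-1475408 was higher in the knockout at ESC (0.36), DE (0.75, with overlapping values) and PE (0.37) and lower at GT (-0.42). Its ESC region covered 108 bp of it. At chr5:1524028-1524527 the member was lower in the knockout at DE (-0.45) and higher at ESC (0.45, with overlapping values), PE (0.33) and PP (0.40). Its DE region covered 227 bp of it. One kept its direction at 4 stages: chr6:31744695-31745194 lay in HNF6-KO lists with log2 ratios of 0.61 at ESC, 0.46 at DE, 0.41 at GT and 0.36 at PP, with overlapping values at GT and PP.

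The members were unevenly spread over the chromosomes. They made up 7.27% of all cluster regions, but 15.7% on chromosome 17 (13.7 to 18.1), 15.6% on chromosome 15 (13.3 to 18.2), 14.4% on chromosome 19 (12.3 to 16.7) and 12.6% on chromosome 22 (10.2 to 15.5). The lowest shares were 1.08% on chromosome 13 (0.496 to 2.34), 2.86% on chromosome 18 (1.79 to 4.54) and 3.02% on chromosome 5 (2.24 to 4.06). As background, chromosomes 17, 19 and 22 are rich in genes and chromosomes 13 and 18 poor in them. That statement leaves out chromosome 15, among the highest, and chromosome 5, among the lowest. The part of gene number in the spread of members was not tested. Members also lay close to other open regions. The median distance from a member to the start of the nearest region of any cluster was 3381 bp, against 12480 bp for the other clusters, and 45.0% of members had one within 2000 bp, against 29.3%. Cluster 1 was close to cluster 6 in this, with a median of 3453 bp and 42.5% within 2000 bp. The nearest region was itself a member for 28.6% of members and belonged to cluster 1, which has 9.20% of all regions, for 19.8%. For regions of cluster 1, the nearest was of their own cluster in 28.8%.

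On chromosomes 1 and 19 the listed members leaned to Con at ESC and PP and to HNF6-KO at DE and PE. On chromosome 1, which holds 179 members, 11 were in the HNF6-KO list and 33 in the Con list at ESC, while the other clusters had 12 in the HNF6-KO list and 131 in the Con list there. At DE, 38 members were in the HNF6-KO list and 0 in the Con list, and the other clusters had 131 and 38 regions in the same lists. At PE, 14 members were in the HNF6-KO list and 5 in the Con list, where the other clusters leaned to Con, with 46 regions in the HNF6-KO list and 110 in the Con list. At PP, 7 members were in the HNF6-KO list and 32 in the Con list, where the other clusters leaned to HNF6-KO, with 127 regions in the HNF6-KO list and 56 in the Con list.

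On chromosome 19, with 139 members, the other clusters leaned the same way as the members at ESC, DE and PE. At ESC the HNF6-KO list held 8 members and the Con list 25, beside 28 and 93 regions of the other clusters. At DE the HNF6-KO list held 26 members and the Con list 7, beside 87 and 18 regions of the other clusters. At PE the HNF6-KO list held 20 members and the Con list 3, beside 52 and 19 regions of the other clusters. At PP the HNF6-KO list held 5 members and the Con list 34, beside 48 and 45 regions of the other clusters.

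These 2 chromosomes, chosen after their values were seen, held 66 of the 127 members in the Con list of PP. They held 20.8% of their own 318 members in that list, against 4.51% of the 1353 members elsewhere. Among the other clusters' regions 4.14% on these chromosomes and 1.80% elsewhere were in that list. Without these chromosomes the ratio of cluster 6 to the other clusters in the Con list of PP was 2.50 in place of 3.67. Of the 21 members in both the HNF6-KO list of DE and the Con list of PP, 17 were on these chromosomes, as were 16 of the 19 in the Con lists of both ESC and PP. Of the 35 members in the Con list of ESC and the HNF6-KO list of DE, 14 were on them and 21 elsewhere.

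On some chromosomes the members went with the whole lists and on others against them. At DE, the HNF6-KO share on chromosome 1 was 100% for members, 77.5% for the other clusters and 84.2% for all list regions. On chromosome 22 at DE it was 100% for members, 97.0% for the other clusters and 95.1% for all list regions. At PP, by contrast, the HNF6-KO share on chromosome 1 was 17.9% for members, 69.4% for the other clusters and 75.8% for all list regions. On chromosome 19 at PP it was 12.8% for members, 51.6% for the other clusters and 47.8% for all list regions. On chromosome 6 at PP it was 92.6%, 93.4% and 95.6% for the same sets. At PP the share was lower in the members than in the other clusters on 13 of the 15 chromosomes with at least 10 listed members, and at PE it was higher on 16 of 17. At DE it was higher on 9 of 10 and at ESC on 13 of 17, while at GT it was lower on 4 of 4. Counts per chromosome are small, and these differences were not tested.

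**Figure D5:**
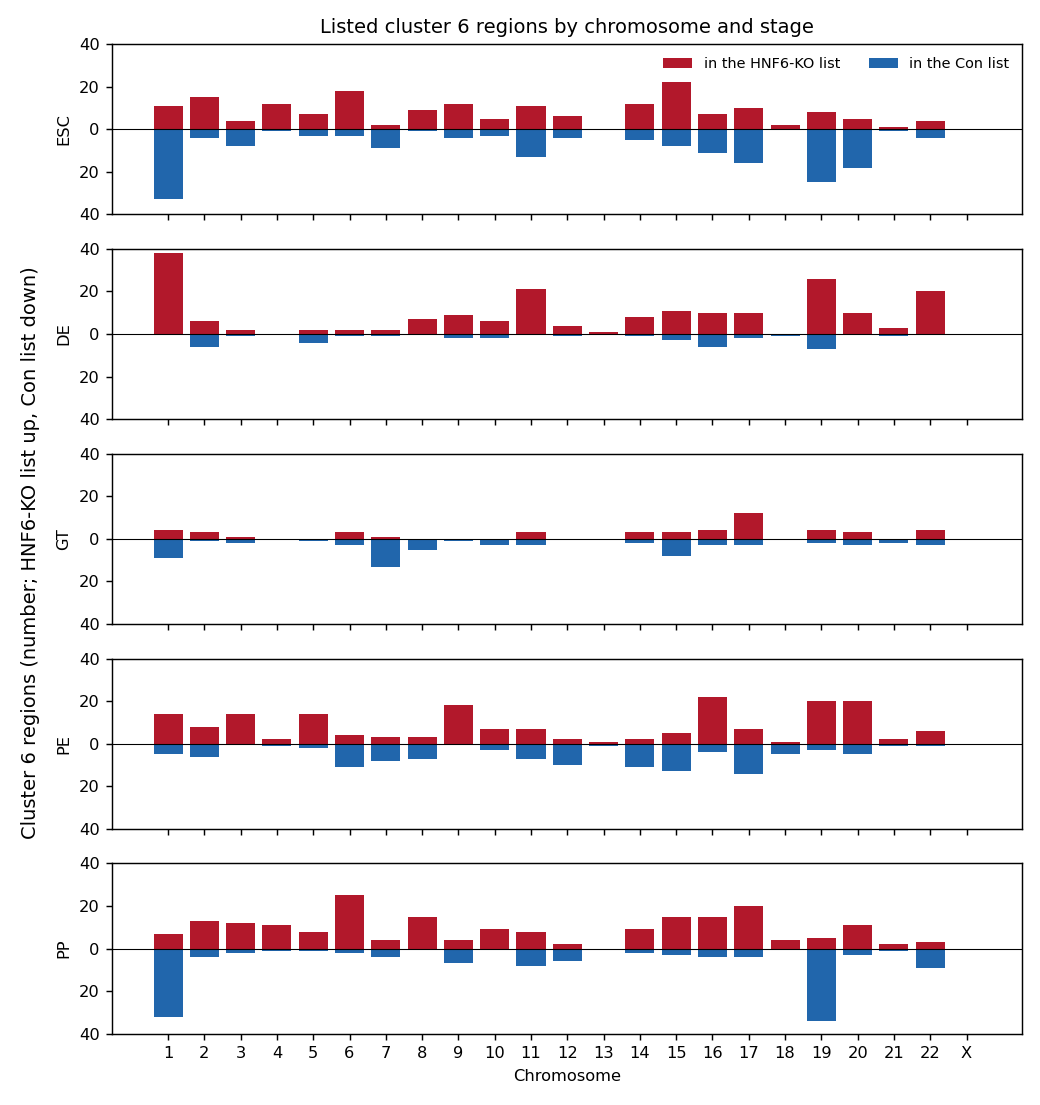
Number of cluster 6 regions on each chromosome that overlap the HNF6-KO list (red, up) or the Con list (blue, down), by stage. Chromosome 1 has 33 Con-list regions at ESC, 38 HNF6-KO-list regions at DE and 32 Con-list regions at PP, and chromosome 19 has 34 Con-list regions at PP.

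The clusters with the most similar shares over the 10 lists were clusters 1 and 7, with summed absolute differences of 29.4 and 38.5 percentage points. Clusters 6 and 1 had the same share, 11.8%, in the HNF6-KO list of DE. Cluster 6 differed from both in the HNF6-KO list of ESC, with 11% against 3.69% in cluster 1 and 3.28% in cluster 7, and in the Con list of PP, with 7.60% against 2.13% and 0.520%. In the Con list of ESC it had 10.4%, below the 18.6% of cluster 1 and the 13.9% of cluster 7. The HNF6-KO list of PE held 10.9% of cluster 6, 7.15% of cluster 1 and 4.91% of cluster 7. Cluster 5 came next, at 39.8 percentage points, and was above cluster 6 in the Con list of PP, with 23.9% against 7.60%. In the HNF6-KO lists cluster 6 had 11% at ESC and 10.9% at PE, beside 7.64% at ESC and 10.6% at PE in cluster 5. The differences between clusters were not tested.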

How the data were processed

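ATAC-seq had been run on 30 HUES8 samples in 10 groups of 3. Per the submitters' processing notes, Bowtie2, MACS2 and hg19 were used, with no version, role or order; read shift, scaling between libraries and the tool behind the lists were not stated. Deposited were 9 cluster files of 500 bp regions and 10 lists. Each list region carries values made by the authors: 3 whole numbers per genotype, a log2 ratio, and a score read as -log10 p, never under 5.0. The authors' log2 ratio runs Con over HNF6-KO; it was recomputed from the values with 1 added to each mean (0 of 89929 regions differed by over 0.001) and is given here as HNF6-KO over Con. The file does not name its 2 sets of numbers; as each list is named for a genotype, the set that is higher in the HNF6-KO lists was read as HNF6-KO and the other as Con.

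Overlaps were counted with Python 3.11.15, numpy 2.4.6 and pandas 2.3.3, and the code was tested on simulated lists. Depth is unknown, so Wilson intervals cover counting error of regions only. Leading regions were the 2 members of each list with the highest -log10 p, and the 6 members at most stages, outside chromosomes 8, Y and M. The members and rules were chosen with earlier results of these data known. Alternatives were a larger overlap, list regions above the median -log10 p, values without overlap, 1 region per 100 kb block, autosomes, another pseudocount and leaving out samples.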

Additional observations from a re-analysis of the deposited data

Results flagged for a closer look

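Among the members named above, 9 were higher in one genotype at one stage and higher in the other genotype at another, with values that did not overlap between genotypes at either. These turns were not tested as a difference between stages, and the ratios are log2 of HNF6-KO over Con. Each ratio belongs to a whole list region, and the list regions of different stages may have only part of their bases in common. On chromosome 1 the member starting at 1474909 had 0.36 at ESC and 0.37 at PE but -0.42 at GT. Its ESC region covered 108 bp of it. The one starting at 17027730 had 0.41 at DE but -0.39 at ESC, -0.32 at GT and -0.44 at PP, of which the GT region covered 171 bp of it. The one starting at 33225670 had 0.29 at PP but -0.41 at ESC and -0.85 at GT, of which the GT region covered 31 bp of it. On chromosome 2 the member starting at 72374575 had 0.42 at PE and -0.78 at DE, and the DE region covered 176 bp of it. On chromosome 5 the member starting at 1524028 had 0.33 at PE and 0.40 at PP but -0.45 at DE. Its DE region covered 227 bp of it. On chromosome 7 the member starting at 155597568 had 0.59 at PP and -0.48 at GT, and the PP region covered 233 bp of it. On chromosome 14 the member starting at 105957117 had 0.55 at DE and -0.47 at ESC. On chromosome 19 the member starting at 51059510 had 0.39 at DE and 0.35 at PE but -0.31 at ESC. On chromosome 20 the member starting at 31044887 had 0.47 at DE and -0.42 at ESC.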

How the results depend on the processing

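The ratio of the share of cluster 6 to that of the other clusters stayed within its counting interval in 59 of 70 recalculations. With at least 250 bp shared it was 0.304 in the Con list of DE and 0.898, in place of 1.10, in the Con list of PE, which turned direction. Above the median -log10 p of each list it was 0.890 in the Con list of PE, also turned, 2.42 in the Con list of ESC, 1.23 in the Con list of GT and 3.77 in the HNF6-KO list of PE. With values that do not overlap it was 0.313 in the Con list of DE and 0.982, in place of 1.10 and within its interval, in the HNF6-KO list of PP, and with 1 region per 100 kb block 1.26 in the HNF6-KO list of PP. Settings chosen after seeing the data gave 1.75 in the Con list of ESC and 1.84 in the HNF6-KO list of DE, with the other clusters weighted by the members' chromosomes, and 2.50 in the Con list of PP without chromosomes 1 and 19. Beyond what the smaller lists entail, the cause was not tested.

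Counts of members changed by over 1.5 times in 11 of 40 recalculations. Above the median -log10 p they were 22 in the Con list of DE, 28 (HNF6-KO) and 29 (Con) at GT, 64 in the Con list of PE, and 124 (HNF6-KO) and 76 (Con) at PP. With values that do not overlap they were 105 in the Con list of ESC, 21 in that of DE and 120 in the HNF6-KO list of PE. With at least 250 bp shared there were 25 in the Con list of DE, and with 1 region per 100 kb block 31 in the HNF6-KO list of GT. All 80 recalculated median log2 ratios, pseudocount and omitted samples included, kept their direction and moved by less than the spread between samples; the widest range on leaving out 1 sample was -0.71 to -0.43 in the Con list of DE. No paired analysis was possible because these results come from no test across samples and the deposited values carry no replicate numbers. Depth is unknown, and a member in no list may still differ.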
